A study of Homo sapiens with 24 samples.

Results

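Of the 30322 union binding sites of S100A8-Flag and S100A9-Flag, 1212 (4.00%) lay at promoters of long noncoding RNA (lncRNA) genes and not at a protein-coding promoter. They were chosen by peak calls and by position. Peaks with a q value of 1e-07 or lower on chromosomes 1 to 22 and X were merged by condition, regions with peaks in at least 2 replicates of a condition were kept, and the conditions were merged into union sites. A site was kept when its summit, taken from the peak with the smallest q value, lay from 1500 bp upstream to 250 bp downstream of the transcription start site (TSS) of a lncRNA gene and more than 1500 bp from every TSS of a protein-coding gene. They are called lncRNA-only promoter sites here, and are set beside the 10400 sites at protein-coding promoters and the 18710 other sites.

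The cells are MCF-10A cells, a human mammary epithelial line that is not transformed, with an inducible oncogene, ER-Src, in which v-Src is joined to the part of the estrogen receptor that binds ligand. Each line stably expressed S100A8-Flag or S100A9-Flag from a retroviral vector, so that the tagged protein is present in addition to the cells' own protein. Cells were given 1 μM 4-hydroxytamoxifen (TAM), which activates ER-Src and starts transformation, or ethanol as vehicle (EtOH) for 24 hours, and chromatin was fixed with protein-protein cross-linkers and formaldehyde before Flag ChIP. The 11 ChIP libraries are S100A8-Flag EtOH (2 replicates), S100A8-Flag TAM (3), S100A9-Flag EtOH (3), and S100A9-Flag TAM (3), and all groups share the ER-Src cells and the culture.

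S100A8 and S100A9 are small calcium-binding proteins best known as a secreted heterodimer of inflamed tissue. A lncRNA gene is transcribed by RNA polymerase II and its RNA is not translated, but its promoter can resemble that of a protein-coding gene, with a nucleosome-depleted start site and binding sites for the same transcription factors. Some of these RNAs act themselves, as NEAT1 does in building paraspeckles, while others are hosts from whose introns small nucleolar RNAs or microRNAs are cut.

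The EtOH libraries held between 1853 and 4609 peaks that passed the q value threshold, and the TAM libraries between 21518 and 40735. The smallest was S100A9-Flag EtOH replicate 2 and the largest S100A9-Flag TAM replicate 3. The lists give no read numbers, so the depth of the libraries is unknown, and lower depth and weaker binding cannot be told apart where a library calls fewer sites.

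The sequences below are the 101 bases around the summit of 8 of these sites, on the plus strand of hg19 (GRCh37), with matches to a factor motif in capitals. CCAAT and TATA boxes are not capitalized. JPX, ENSG00000273145, and ADAMTSL4-AS1 are shown because their sites ranked highest among those called in every library. The JPX window is chrX:73164016-73164116, 5 bp upstream of the TSS at its center, and holds none of the motifs searched. The ENSG00000273145 window, chr22:46409416-46409516, has an AP-1 match. The ADAMTSL4-AS1 window, chr1:150534611-150534711, has a STAT match.
JPX: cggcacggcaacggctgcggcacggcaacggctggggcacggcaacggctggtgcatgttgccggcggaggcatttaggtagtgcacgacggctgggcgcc
ENSG00000273145: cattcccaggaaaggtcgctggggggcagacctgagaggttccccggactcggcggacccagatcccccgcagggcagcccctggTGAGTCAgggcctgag
ADAMTSL4-AS1: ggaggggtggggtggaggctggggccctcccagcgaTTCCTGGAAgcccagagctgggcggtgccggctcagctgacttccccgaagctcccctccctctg

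LINC01431 (chr20:23338759-23338859) and ENSG00000291073 (chr16:21513645-21513745) ranked highest among the sites that all TAM libraries and no EtOH library called. ENSG00000291073 has 2 matches to the KLF/SP1 motif, 1 on each strand, and LINC01431 has none within 50 bp of its summit.
LINC01431: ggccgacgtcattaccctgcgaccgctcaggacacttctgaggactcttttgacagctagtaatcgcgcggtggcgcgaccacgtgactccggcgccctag
ENSG00000291073: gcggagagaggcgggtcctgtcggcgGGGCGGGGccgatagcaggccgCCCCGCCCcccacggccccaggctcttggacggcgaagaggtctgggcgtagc

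The last 3 stood at or next to the top of lists of lncRNAs with known roles, where sites were ranked by the number of libraries that called them and then by percentile. The sites at MIR29B2CHG, EPB41L4A-AS1, and LINC00511 also stood at the top of a list, but held no factor motif in the 101 bases and are not shown. ENSG00000290057, next in rank after ENSG00000291073, also held none and is not shown. MIR762HG (chr16:30886656-30886756) has an ETS match, NEAT1 (chr11:65189704-65189804) a CREB match, and HIF1A-AS3 (chr14:62217781-62217881) a KLF/SP1 match.
MIR762HG: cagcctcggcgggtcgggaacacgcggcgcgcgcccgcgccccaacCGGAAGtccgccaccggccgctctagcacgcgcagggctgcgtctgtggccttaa
NEAT1: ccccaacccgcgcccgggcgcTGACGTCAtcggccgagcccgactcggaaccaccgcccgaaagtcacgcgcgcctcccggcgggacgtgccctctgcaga
HIF1A-AS3: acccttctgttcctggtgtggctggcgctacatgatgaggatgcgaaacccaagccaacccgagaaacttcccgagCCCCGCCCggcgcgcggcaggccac

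The summits gathered at the start sites (see the plot of summit positions). The median summit was 93.5 bp upstream of the nearest lncRNA TSS, and 539 of 1212 (44.5%) lay within 100 bp of it. An even spread over the window of a single TSS would put 11.5% there. Protein-coding promoter sites lay closer, with 59.1% within 100 bp and a median 51 bp upstream. Conversely, 292 lncRNA-only promoter sites (24.1%) lay more than 500 bp upstream, against 12.7% of protein-coding promoter sites. Distances are to the nearest of all transcript starts, which by itself shortens them where several starts lie in the window. The part of this in these shares was not tested. The sites were 371 bp wide in the median, between the 524 bp of protein-coding promoter sites and the 285 bp of other sites.

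**Figure D1:**
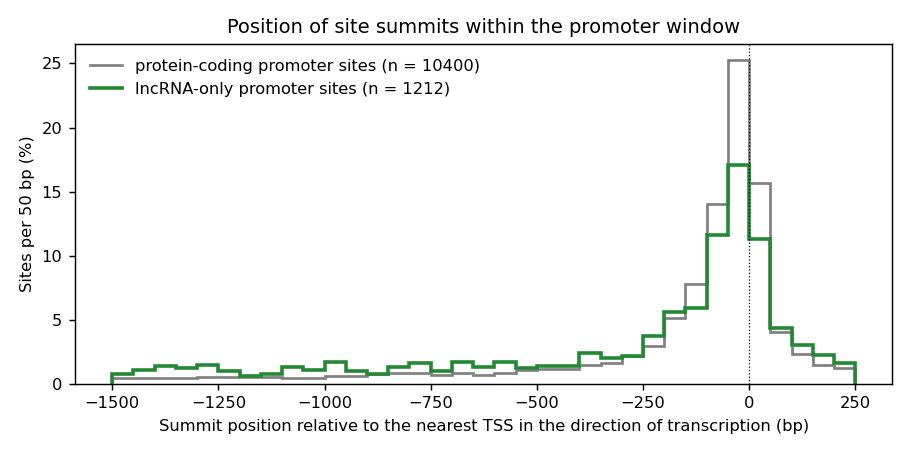
Distribution of site summits relative to the nearest TSS, in bp along the direction of transcription (x) and as the percent of sites per 50 bp (y), for the 1212 lncRNA-only (green) and 10400 protein-coding (grey) promoter sites. Both peak in the 50 bp upstream of the TSS, and the lncRNA-only line lies above the grey line over most of the upstream flank.

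The nearest TSS belonged to 1101 distinct lncRNA genes. One gene lay in the window of 1093 sites, and 2 or more genes in that of the others. Most of the genes are poorly characterized, since 678 sites (55.9%) are nearest to a gene known only by an Ensembl identifier, 241 (19.9%) to a gene with a LINC number, and 117 (9.65%) to a gene named as antisense to another. Of the sites, 985 (81.3%) lay outside every protein-coding gene, 185 (15.3%) inside one on the opposite strand from the lncRNA, and 37 (3.05%) inside one on the same strand. The nearest protein-coding TSS was 26259 bp away in the median, and for 173 sites (14.3%) it was within 5000 bp.

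Taken over the annotation, a small part of the lncRNA promoters away from protein-coding start sites had a site. Of 18592 lncRNA genes, 14746 have a TSS more than 1500 bp from every protein-coding TSS. A union site lay in the window of 1188 of them (8.06%), against 9771 of 20098 protein-coding genes (48.6%). The protein-coding genes were held to no such distance rule, so the shares follow unlike rules. LncRNA promoters beside protein-coding starts were not counted. The share was 6.56% of the 10456 genes with an identifier only and 10.9% of the 2197 LINC genes. The 94 genes with 2 or more sites include MIRLET7BHG, with 5.

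The peaks of each library were also counted over the same 14746 genes, a measure that does not rest on the union sites. The percent of these genes with a promoter peak rose in TAM over both proteins together. It was 1.35 and 1.53% in the S100A8-Flag EtOH libraries and 1.19, 0.617, and 1.45% in the S100A9-Flag EtOH libraries. In TAM it was 7.19, 6.14, and 5.64% for S100A8-Flag and 6.53, 6.20, and 9.32% for S100A9-Flag. The groups did not overlap, and the mean went from 1.23 ± 0.363% (SD, n = 5) to 6.84 ± 1.32% (SD, n = 6), a difference of 5.57 percentage points averaged over the proteins (exact permutation test over libraries, two-sided, p = 0.01, the smallest p the design allows). For protein-coding genes the percent went from 10.8 ± 2.67 to 41.3 ± 5.62 (exact permutation p = 0.01). Within a protein the difference was 4.88 points for S100A8-Flag (exact permutation p = 0.2) and 6.26 points for S100A9-Flag (exact permutation p = 0.1), and neither p can be smaller with so few libraries. With the 1853 top peaks of every library the difference was 0.0294 points (exact permutation p = 0.17). Taking the top peaks changes both the number and the strength of the peaks used, and the part of each was not tested.

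Among promoter peaks, those at lncRNA-only promoters took a larger share in TAM. The share of lncRNA-only peaks among all promoter peaks, lncRNA-only and protein-coding together, was 7.99 and 8.27% in the S100A8-Flag EtOH libraries and 7.61, 6.87, and 8.07% in the S100A9-Flag EtOH libraries. In the TAM libraries it was 10.4, 10.7, and 10.1% for S100A8-Flag and 10.1, 9.73, and 10.7% for S100A9-Flag. Every TAM library was above every EtOH library, and the mean rose from 7.76 ± 0.556% (SD, n = 5) to 10.3 ± 0.384% (SD, n = 6), by 2.46 points averaged over the proteins (exact permutation p = 0.01, the smallest possible). With the 1853 top peaks of each library, which removes the difference in the number of peaks, the rise was 2.08 points (exact permutation p = 0.01), from 7.54 ± 0.456% to 9.64 ± 0.921%. That analysis counted between 83 and 97 lncRNA-only promoter peaks per library, and a mean of 1053 protein-coding promoter peaks in EtOH and 855 in TAM. The share did not pass the test between the proteins (S100A9-Flag minus S100A8-Flag, fell by 0.426 points, exact permutation p = 0.16), and neither did the difference between the proteins in the TAM effect (0.378 points, exact permutation p = 0.6).

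As a share of all peaks, wherever they lie, lncRNA-only promoter peaks went the other way. They were 4.45 ± 0.108% of peaks in EtOH (SD, n = 5) and 3.83 ± 0.124% in TAM (SD, n = 6), and the share fell by 0.630 points (exact permutation p = 0.01, the smallest possible). Protein-coding promoter peaks went from 53.2 ± 4.53% to 33.5 ± 2.08% of all peaks (exact permutation p = 0.01). The lncRNA-only share did not keep this direction with the 1853 top peaks of each library. There it was higher in TAM, by 0.274 points, and did not pass the test (exact permutation p = 0.08).

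**Figure D2:**
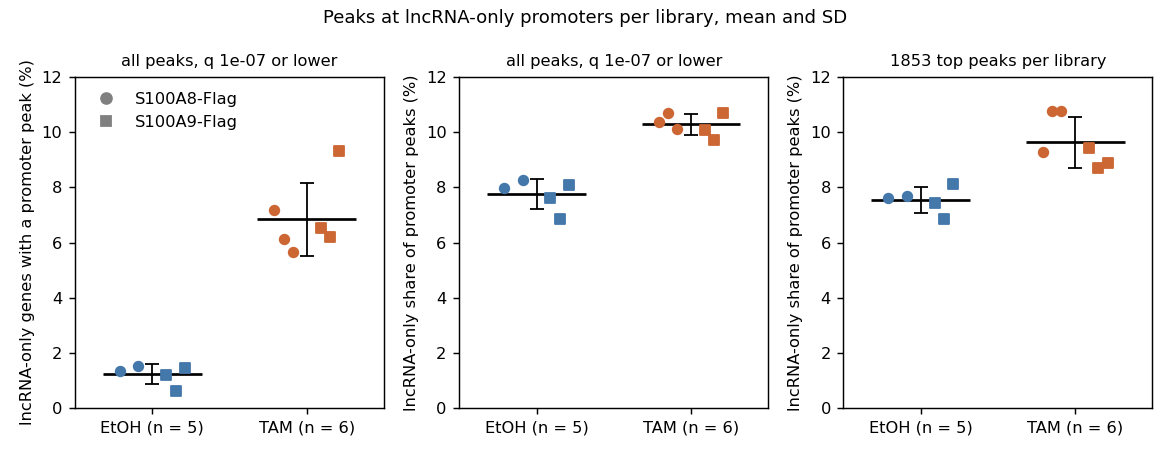
Peaks at lncRNA-only promoters in each library (points, circles for S100A8-Flag and squares for S100A9-Flag), with mean and SD (bars) for 5 EtOH and 6 TAM libraries. The panels give the percent of lncRNA-only genes with a promoter peak, the percent of promoter peaks that are lncRNA-only, and the latter with 1853 peaks per library, and in each of them the TAM points lie above the EtOH points.

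The calls at the 1212 sites themselves chose the sites and are given as a description. The EtOH libraries called 14.4 and 15.6% of them for S100A8-Flag and 11.1, 5.94, and 13.6% for S100A9-Flag. In TAM the lowest library called 54.4%, the median was 63.7%, and the highest, S100A9-Flag replicate 3, called 85.7%. The ratio of this percent to the percent of protein-coding promoter sites called was between 0.606 and 0.778 in EtOH libraries and between 0.912 and 0.978 in TAM libraries. At least 1 EtOH library called 446 sites (36.8%, exact binomial 95% interval 34.1 to 39.6, counting error only), against a background of 31.1% over all union sites. The same percent was 48.0 (47.0 to 49.0) for protein-coding promoter sites and 21.4 (20.8 to 22) for other sites. All 6 TAM libraries called 206 sites (17.0%, background 14.3%), and all 6 TAM libraries and no EtOH library called 63 (5.20%, background 4.69%). All 11 libraries called 5 (0.413%, background 0.346%). A larger share of EtOH than of TAM libraries called 11 sites (0.908%, background 0.953%).

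**Figure D3:**
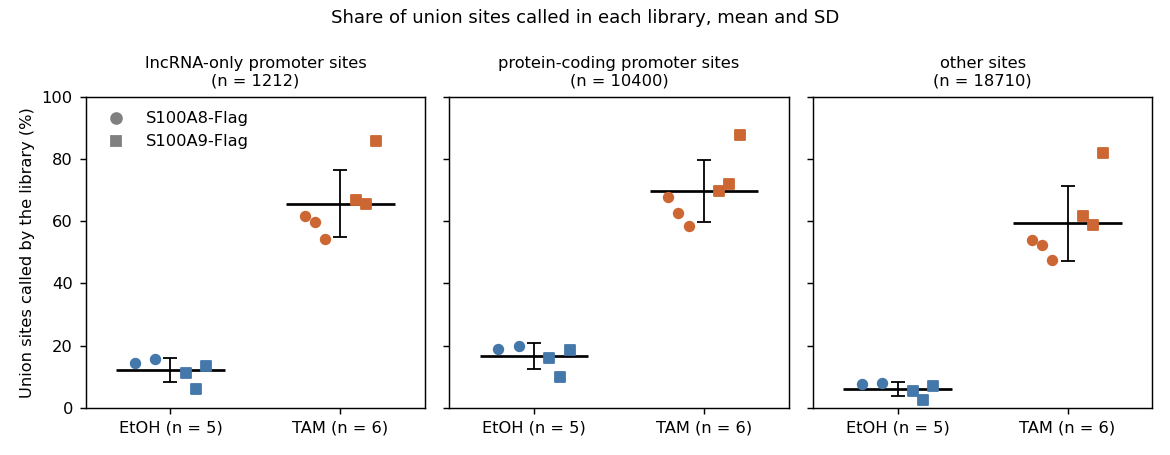
Percent of union sites called by each library (points, circles for S100A8-Flag and squares for S100A9-Flag) with mean and SD, for lncRNA-only promoter sites, protein-coding promoter sites, and other sites. In EtOH the lncRNA-only values, 5.94 to 15.6%, lie between those of the other classes, and in TAM they range from 54.4 to 85.7%.

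The TAM replicates shared more of their calls at these sites than the EtOH replicates did, as a description. All but 5 of the sites were confident in a TAM condition, and the TAM lists are longer. More sharing in TAM is therefore fixed in part by the choice of the sites. Of the sites that a S100A8-Flag TAM replicate called, another replicate of the group called between 60.4 and 70.1%, and for S100A9-Flag TAM this was between 64.9 and 89.7%. The S100A8-Flag EtOH replicates shared 67 sites, 38.5% of those called by replicate 1 and 35.4% of those called by replicate 2. Among S100A9-Flag EtOH replicates the shares ran from 17.0 to 40.3%. Of the 1212 sites, 766 (63.2%) were called by no EtOH library and 272 (22.4%) by 1. At least 1 EtOH library called 36.8% of them, against 31.1% of all union sites. Sharing between replicates was not computed over all union sites. The values here are therefore not read as a trait of lncRNA-only promoters.

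Calls for S100A8-Flag and S100A9-Flag were compared at the lncRNA-only promoter sites. These calls chose the sites, and each share is set beside the same share of all union sites as background. In TAM 773 sites (63.8%, background 60.1%) were confident, with peaks in at least 2 replicates, for S100A8-Flag. For S100A9-Flag 1020 (84.2%, background 82.3%) were, and 586 (48.3%, background 42.8%) were confident for both. The share confident for both was 54.7% of protein-coding promoter sites and 35.8% of other sites. In EtOH 64 sites (5.28%, background 4.01%) were confident for S100A8-Flag and 65 (5.36%, background 4.54%) for S100A9-Flag, and 5 sites (0.413%, background 0.383%) were confident in no TAM condition. Equal numbers of S100A8-Flag and S100A9-Flag TAM libraries called 361 sites (29.8%, background 26.6%). All 3 S100A9-Flag TAM libraries and no S100A8-Flag TAM library called 32 (2.64%, background 3.21%), and 3 (0.248%, background 0.587%) were called the other way around. The larger number for S100A9-Flag goes with the larger number of peaks in its replicate 3, and its part in the difference was not tested. Both proteins had a TAM peak at 981 of 1212 lncRNA-only, 8845 of 10400 protein-coding, and 13699 of 18710 other sites. At these sites the summits of the 2 proteins were 30 bp apart in the median (quartiles 12 and 57 bp) for lncRNA-only promoters. The median was 42 bp at protein-coding promoter sites and 27 bp at other sites.

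Of the 5 sites called in all 11 libraries, the JPX site ranked highest. JPX is a lncRNA of the X inactivation center that promotes expression of its neighbor. Its site (chrX:73163923-73164377) had a fold enrichment over input of 9.39 and 20.7 in S100A8-Flag EtOH, 14.6, 13.4, and 8.02 in S100A9-Flag EtOH, 15.2, 9.60, and 13.4 in S100A8-Flag TAM, and 6.95, 23.7, and 14.0 in S100A9-Flag TAM. EtOH and TAM values overlap throughout. Fold enrichments come from separate peak calls against separate inputs, so they were ranked within a library only, and a higher value in another library is not read as more binding. The mean percentile of the JPX site over the 11 libraries was 83.5, and those of the others were 74.2 for ENSG00000273145 (chr22:46409276-46410204), 63.3 for ADAMTSL4-AS1 (chr1:150533461-150535000), 50.3 for MIR29B2CHG (chr1:207997199-207997733), and 37.5 for LINC01703 (chr1:226270639-226272132). At ADAMTSL4-AS1, within the annotated MCL1 gene, the fold enrichment was 7.75 and 7.38 in S100A8-Flag EtOH, 6.46, 7.83, and 8.73 in S100A9-Flag EtOH, 11.5, 13.8, and 17.3 in S100A8-Flag TAM, and 9.05, 19.4, and 15 in S100A9-Flag TAM. Its mean percentile was 29.4 in EtOH and 91.6 in TAM, while that of LINC01703 was 39.3 and 36.0. Percentiles in the shorter EtOH and the longer TAM lists are not on one scale, so that these values are not a measure of change between treatments. MCL1 encodes an antiapoptotic member of the BCL2 family.

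The 10 sites that ranked highest among those called in all TAM libraries and no EtOH library had mean TAM percentiles between 73.4 and 85.1. They are LINC01431, ENSG00000291073, ENSG00000290057, ENSG00000288935, LINC02606, LINC01600, NECTIN4-AS1, LINC01366, ENSG00000267069, and PRECSIT. LINC01431 (chr20:23338410-23339134) had fold enrichments of 15.3, 10.8, and 10.4 in S100A8-Flag TAM and 11.6, 9.91, and 10.2 in S100A9-Flag TAM. ENSG00000290057 (chr11:65188479-65189248) lies next to the NEAT1 site, with 14.9, 12.6, and 14.4 in S100A8-Flag TAM and 11.8, 8.74, and 8.53 in S100A9-Flag TAM. LINC01600, LINC01366, and LINC02606 have summits within 28 bp of the TSS, and NECTIN4-AS1, with a summit 847 bp upstream, lies inside NECTIN4, a cell adhesion gene. AP-1 matches lay within 100 bp of the summits of NECTIN4-AS1, PRECSIT, and LINC01366, and 23.5% of all lncRNA-only promoter sites had one. Other motifs also occurred, such as ETS and KLF/SP1 at ENSG00000288935, KLF/SP1 at ENSG00000291073, and CREB and NRF1 at LINC02606. A link of a motif to these calls was not tested.

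**Figure D4:**
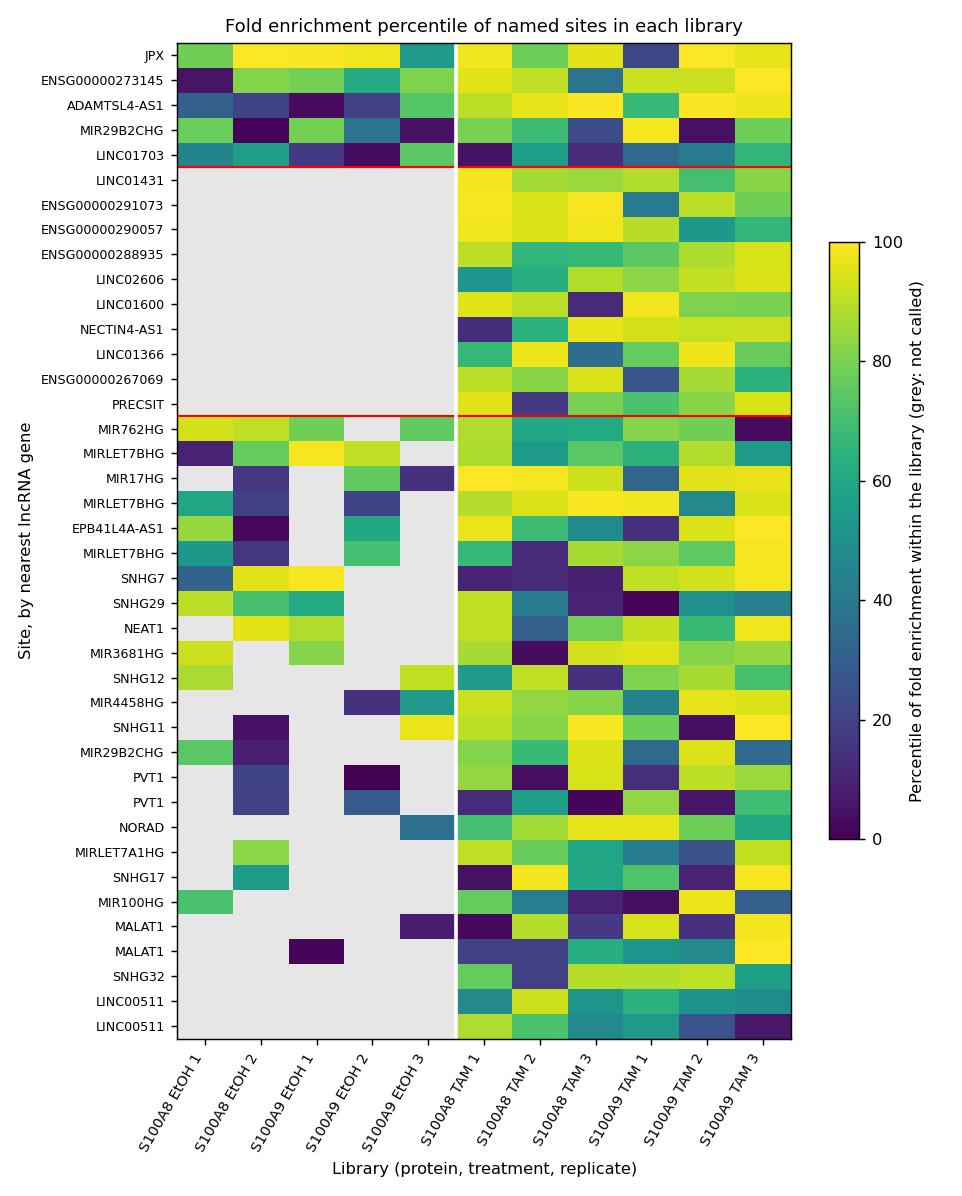
Percentile of fold enrichment within each library (color, 0 to 100, with grey for not called) at 40 sites named by their nearest lncRNA gene (y) in 11 libraries (x, EtOH left of the white line). The blocks between red lines are the 5 sites called in all libraries, the 10 highest called in all TAM and no EtOH libraries, and the 25 sites of the role lists called in all TAM libraries, where a gene with several sites has several rows.

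LncRNA genes with known roles were examined by list. The lists were drawn up with earlier results of these data known, and the count of genes with a site is given beside the 8.06% of all 14746 genes. Most of those genes have an identifier only. Of the 764 genes with a symbol outside the LINC, antisense, divergent, and host names, 14.1% had a site. The lists were not compared with a matched set of named genes. Small nucleolar RNA hosts carry in their introns the RNAs that guide modification of ribosomal RNA. Of 27 such genes 17 (63.0%) had a site, and 11 of the 17 sites of the list were called in at least 1 EtOH library (36.8% of lncRNA-only and 31.1% of all union sites were) and 7 in all TAM libraries (17.0 and 14.3% were). The EPB41L4A-AS1 site (chr5:111496299-111496887) was called in 3 EtOH and all 6 TAM libraries, as were those of SNHG7 and SNHG29. SNHG32 was called in all TAM libraries and no EtOH library, with fold enrichments of 9.54, 6.57, and 11.2 in S100A8-Flag and 11.7, 12.9, and 7.93 in S100A9-Flag. GAS5, SNHG1, SNHG5, SNHG14, SNHG16, SNHG22, SNHG27, SNHG28, SNHG31, and ZFAS1 had no lncRNA-only promoter site. The site rule leaves out summits near a protein-coding TSS, so binding at a start site beside a protein-coding gene was not counted. A gene without a site, in this or the other lists, is therefore not shown to be unbound.

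MicroRNA hosts had a site at 20 of 74 genes (27.0%), and 19 of their 30 sites were called in at least 1 EtOH library and 11 in all TAM libraries, which can be set beside the same 36.8 and 17.0% of lncRNA-only and 31.1 and 14.3% of union sites. MIRLET7BHG, host of let-7 family microRNAs that restrain growth, had 5 sites on chromosome 22, and 3 of them were called in all TAM libraries. MIR17HG, host of an oncogenic microRNA cluster, had a site at the TSS (chr13:92001197-92001708) with fold enrichments of 21.8, 15.8, and 11.9 in S100A8-Flag TAM and 7.31, 14.7, and 14.3 in S100A9-Flag TAM. It was called in 3 EtOH libraries, at 7.23, 9.35, and 7.0. The MIR762HG site, inside BCL7C, was called in 4 EtOH libraries and all TAM libraries. MIR29B2CHG is a host of microRNAs that target collagen and other matrix genes. Its site called in every library lay 1307 bp upstream of an internal start of the gene. The site 85 bp upstream of a start farther 5' (chr1:208042314-208042813) was called in 5 EtOH and 5 TAM libraries.

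The list of nuclear body and other abundant lncRNAs had a site at 5 of 11 genes (45.5%), which were NEAT1, MALAT1, NORAD, JPX, and FTX. NEAT1 and MALAT1 are neighbors on chromosome 11. The NEAT1 site (chr11:65189429-65191692) was called in all TAM libraries, at 11.7, 7.09, and 9.68 in S100A8-Flag and 12.2, 9.70, and 15.4 in S100A9-Flag, and in 2 EtOH libraries at 12.1 and 10.1. MALAT1, whose RNA lies in nuclear speckles, had 2 sites (chr11:65264814-65265463 and chr11:65266373-65266621), each called in all TAM libraries and 1 EtOH library. NORAD, which binds Pumilio proteins, was called in all TAM libraries at 9.02, 10.7, and 13.8 in S100A8-Flag and 14.3, 10.7, and 8.20 in S100A9-Flag, and in 1 EtOH library at 7.64. CYTOR, H19, KCNQ1OT1, MEG3, MIAT, and OIP5-AS1 had no lncRNA-only promoter site.

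Lists of cancer and inflammation lncRNAs had a site at 10 of 21 (47.6%) and 3 of 6 (50%) genes. Of the 16 sites of the cancer list, 6 were called in at least 1 EtOH library and 4 in all TAM libraries. Of the 4 sites of the inflammation list, these numbers were 2 and 0. The same shares were 36.8 and 17.0% of lncRNA-only and 31.1 and 14.3% of all union sites. LINC00511 had 4 sites, and those at chr17:70588408-70589082 and chr17:70461733-70462063 were called in all TAM libraries and no EtOH library. LUCAT1, a stress-responsive lncRNA, had 2 sites (chr5:90607557-90607828 and chr5:90610131-90610444), each with an AP-1 match within 100 bp of the summit and each called in 4 TAM libraries, the first also in 1 EtOH library. The HIF1A-AS3 site (chr14:62217672-62218157), 5508 bp from the nearest TSS of HIF1A, was called in 3 EtOH and 4 TAM libraries. The other sites of the cancer list were nearest to CASC15, CASC19, DLEU2, LINC-PINT, LINC00460, LINC00520, PCAT1, and PVT1, and IRF1-AS1 completed the inflammation list. BCAR4, CASC8, CCAT2, CDKN2B-AS1, HOTAIR, HOTAIRM1, HOTTIP, HULC, LINC-ROR, SAMMSON, and UCA1 had no lncRNA-only promoter site, nor had MIR3142HG, THRIL, and WAKMAR2.

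Of the 11 sites that a larger share of EtOH than of TAM libraries called, 5 are named here by their excess. LINC00963 (chr9:132249102-132249447), the 1 site of the 1212 with no TAM call, had 12.2 and 9.64 in the S100A8-Flag EtOH libraries and no call elsewhere. ENSG00000261543, ENSG00000288929, and ENSG00000263588 were called by 2 or 3 EtOH and 1 or 2 TAM libraries, and GLUD1P3 by all 5 EtOH and 5 of 6 TAM libraries. Of the 32 sites with all 3 S100A9-Flag TAM calls and no S100A8-Flag TAM call, the 5 with the highest mean percentile were those at LINC01730, ENSG00000287964, LINC01970, PPP1R3B-DT, and LINC01151. LINC01730 (chr20:3788637-3789111) had 14.1, 12.1, and 7.14 in S100A9-Flag TAM and no call in the other libraries. Just inside the threshold, AGBL1-AS1, ENSG00000289464, and ENSG00000226281 had −log10 q values of 7.001, 7.001, and 7.005 in the second-best replicate of their best condition. Just outside it, regions at SVIL-AS1, LINC01140, and ENSG00000230515 had 6.993, 6.948, and 6.948.

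The shares of lncRNA-only promoter sites with AP-1, ETS, KLF/SP1, C/EBP, and CTCF motifs lay between those of protein-coding promoter sites and those of other sites, while that of the CCAAT box did not. Motifs were searched within 100 bp of the summit on both strands without mismatches, and all shares are descriptions with exact binomial 95% intervals, since sites are not replicates. The letters were TGACTCA for AP-1, the letters CGGAAG for ETS, CCCCGCCC for KLF/SP1, TTGCNNAA or TTACNNAA for C/EBP, TGACGTCA for CREB, TTCCNGGAA for STAT, GCATGCGC for NRF1, ACTACAATT for THAP11, and TCTCGCGA for ZBTB33. The CCAAT box and the TATAAA box were searched by those letters and CTCF by the name of its consensus. AP-1 is a dimer of FOS and JUN proteins induced by growth and stress signals. Its motif lay at 23.5% of lncRNA-only promoter sites (21.2 to 26.0), 8.60% of protein-coding promoter sites (8.06 to 9.15), 35.9% of other sites (35.2 to 36.5), and 26.0% of all union sites. The ETS motif, common at promoters of constitutively expressed genes, lay at 15.5% of lncRNA-only (13.5 to 17.7), 25.7% of protein-coding, 6.44% of other, and 13.4% of all sites. The KLF/SP1 motif lay at 10.1%, 23.6%, 3.6%, and 10.7% of the same classes. The motif of C/EBP, a family active in inflammation, lay at 15.6%, 8.34%, 21.7%, and 16.9%. The motif of CTCF, a factor of chromatin loop boundaries, lay at 12.5%, 7.52%, 13.2%, and 11.2%. Its intervals at lncRNA-only promoter sites (10.7 to 14.5) and at other sites (12.7 to 13.7) overlap. The CCAAT box lay at 17.2% of lncRNA-only (15.2 to 19.5), 19.6% of protein-coding, and 20.4% of other sites. None of the 12 motifs was found at 30.8% of lncRNA-only (28.2 to 33.5), 29.1% of protein-coding, 25.6% of other, and 27.0% of all sites.

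The promoters of lncRNA genes without a site give a comparison over the same window, centered on their outermost TSS. AP-1 matches lay at 4.23% of them, ETS at 4.99%, KLF/SP1 at 2.81%, CTCF at 0.878%, and C/EBP at 17.5%. The TATA box was found at 12.4% of these start sites and at 3.05% of lncRNA-only promoter sites. A CpG-rich sequence, defined here as over 50% G and C with a ratio of observed to expected CpG over 0.6 within 250 bp, lay at 33.6% of lncRNA-only promoter sites (30.9 to 36.3), 77.1% of protein-coding promoter sites, 8.19% of other sites, and 7.35% of start sites without a site. A window centered on a summit and one centered on a TSS are not the same kind of window, and the part of this in the differences was not tested.

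The sites within 250 bp of the TSS (807) and those farther upstream (405) differed in these shares. The ETS motif lay at 18.1% of the first (15.5 to 20.9) and 10.4% of the second (7.58 to 13.8), and CpG-rich sequence at 39.4% and 22%. AP-1 lay at 21.9% (19.1 to 24.9) and 26.7% (22.4 to 31.3), with intervals that overlap. Of sites called in at least 1 EtOH library, 49.1% were CpG-rich (44.4 to 53.8), 21.5% had an ETS match, and 18.4% an AP-1 match, against 24.5% (21.5 to 27.8), 12%, and 26.5% of the sites that no EtOH library called. AP-1 and CpG-rich sequence seldom met, since 22 sites (1.82%) had both.

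The same features were then compared between treatments on each library's own lncRNA-only promoter peaks, as percent of peaks, for 14 measures and with adjusted p values by the Benjamini-Hochberg method. These tests were added after the data were seen. Peaks with an AP-1 match were 18.3 and 17.8% in S100A8-Flag EtOH, 12.6, 8.43, and 13.6% in S100A9-Flag EtOH, 22, 21.4, and 23.9% in S100A8-Flag TAM, and 24.5, 21.6, and 23.6% in S100A9-Flag TAM. All TAM libraries were above all EtOH libraries, and the share rose by 8.04 points averaged over the proteins (exact permutation p = 0.01, adjusted p = 0.035). With 1853 top peaks in each library the rise was 13.2 points (exact permutation p = 0.01). The C/EBP share rose by 3.94 points, from 11.7 ± 3.11% to 15.9 ± 0.561% (exact permutation p = 0.01, adjusted p = 0.035), and by 6.57 points with equal numbers of peaks (exact permutation p = 0.02).

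CpG-rich peaks fell by 15.2 points, from 49.3 ± 3.64% in EtOH to 33.8 ± 1.3% in TAM (exact permutation p = 0.01, adjusted p = 0.035), with no overlap between the groups. With equal numbers of peaks the share fell by 6.76 points and did not pass the test (exact permutation p = 0.2). The share of summits within 100 bp of the TSS went from 47.5 ± 2.23% to 41.7 ± 1.96% (exact permutation p = 0.01, adjusted p = 0.035), and with equal numbers of peaks the difference was 0.626 points in the other direction (exact permutation p = 0.83). It did not pass the test with every deposited peak (−2.09 points, exact permutation p = 0.33) or with summits within 250 bp of the TSS (−4.48 points, exact permutation p = 0.07). The ETS share was 19.6 ± 4.03% in EtOH and 14.3 ± 0.652% in TAM, with overlap of the groups, and did not pass after adjustment (exact permutation p = 0.03, adjusted p = 0.07). CTCF was 9.03 ± 1.84% and 10.9 ± 1.60% (adjusted exact permutation p = 0.12). The KLF/SP1 share was 10.5 ± 2.57% and 10.6 ± 1.3% (adjusted exact permutation p = 0.89). At protein-coding promoter peaks the AP-1 share was 4.10 ± 0.820% in EtOH and 7.99 ± 0.402% in TAM. The C/EBP share there was 6.55 ± 0.645% and 8.44 ± 0.523%, and the CpG-rich share 86.4 ± 2.60% and 76.1 ± 1.39%. These 3 shares went in the same direction as at lncRNA-only promoters, and were not tested at protein-coding promoters.

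**Figure D5:**
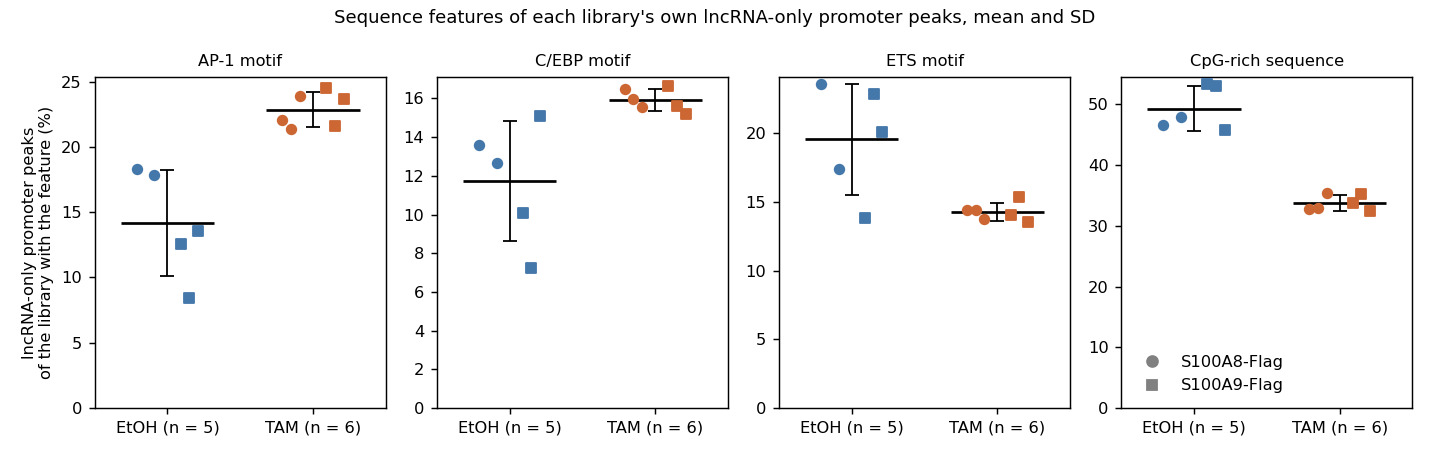
Percent of each library's own lncRNA-only promoter peaks (y) with an AP-1, C/EBP, or ETS match within 100 bp of the summit or with CpG-rich sequence within 250 bp (points, circles for S100A8-Flag and squares for S100A9-Flag), with mean and SD for 5 EtOH and 6 TAM libraries. AP-1 and C/EBP are higher in every TAM library, CpG-rich sequence is lower in every TAM library, and ETS values overlap.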

How the data were processed

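The authors aligned reads to hg19 with Bowtie2 and called narrow peaks in each Flag ChIP library with MACS2 against its own chromatin input, without pooling replicates (tool versions are not given in the sources used here). The deposited lists give, per peak, the fold enrichment over input (a ratio), the −log10 of the q value, and the summit as an offset from the peak start, another number deposited by the authors. They reach a q value of 0.05. Pol II, RNA, and input data were not analyzed here. Every peak lay within the GRCh37 chromosome lengths, so GENCODE 44 lifted to GRCh37 and its genome were used, with the TSS of every transcript of lncRNA and protein-coding genes in place of the annotation of the study. Overlap by 1 bp merged peaks. Percentiles rank a library's peaks by fold enrichment.

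Treatments were compared by exact permutation of libraries within each protein, two-sided by doubling the smaller tail, and 2 S100A8-Flag EtOH libraries limit the smallest p. Replicates are described as biological replicates. Members, gene lists, and named sites were chosen with earlier results of these data known. Sites were named by rule: the 10 best-ranked members that every library called (5 existed) and the 10 best-ranked that every TAM but no EtOH library called, the sites of the gene lists, the largest excess of EtOH calls, the largest difference between proteins, and the sites next to the threshold. Sequence was read from GRCh37. Soft-masked sequence was not analyzed here, since that genome copy is in capitals. The site rule and the permutation test were tested on simulated data. Python 3.11.15, numpy 2.4.6, pandas 2.3.3, scipy 1.17.1, and matplotlib 3.10.9 were used. Intervals cover counting error only.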

Additional observations from a re-analysis of the deposited data

How the results depend on the processing

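The rise of the lncRNA-only share of promoter peaks in TAM held its direction and passed the test under each alternative but 1, from 1.39 points with summits within 250 bp of the TSS to 3.13 points with gene record starts. The exception was the replicate block, in which same-numbered EtOH and TAM libraries were paired. It gave 2.53 points for this share, 5.74 points for lncRNA-only genes with a peak, and −0.628 points for the share of all peaks, each at p = 0.0625 (exact permutation), the smallest possible with 5 pairs. No pairing by number was seen in the calls at the 1212 sites. The correlation of centered calls was between −0.0746 and 0.00378 over these pairs, and none correlated best with its own number. Those sites were chosen by the same calls and the libraries are few, so this check cannot decide whether same-numbered libraries were handled together. Under the block AP-1, C/EBP, and CpG-rich shares also had p = 0.0625 (exact permutation).

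With the 1853 top peaks of every library, the share of lncRNA-only genes with a peak rose by 0.0294 points and the share of all peaks reversed to 0.274. The test between the proteins in the TAM effect reversed to −1.09 points, and the summits within 100 bp of the TSS to 0.626 points. With gene record starts the difference between the proteins was 0.046 points and that in the TAM effect −0.356 points, both reversed. The cause of these reversals was not tested. The number of sites was 2105 with every deposited peak, 758 at q of 1e-10, 120 with equal numbers of peaks, 807 within 250 bp of the TSS, 585 when every replicate was required, and 2354 with at least 1 replicate. Those called in EtOH numbered 1199, 181, and 85 under the first 3 of these.

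Leaving out each library in turn gave 924 to 1212 sites, 372 to 434 of them called in EtOH, 5.08 to 5.86 points for genes with a peak, −0.682 to −0.578 for the share of all peaks, and 2.30 to 2.60 for the share of promoter peaks. The lowest number of sites was that without S100A9-Flag TAM replicate 3. The alternatives with 250 bp, with protein-coding transcripts only, and for the motifs were chosen after seeing the data. The depth of the libraries is unknown.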
